A study of Mus musculus with 3 samples.

Results

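The mitochondrial respiratory chain is described here through the nuclear genes for its subunits in mouse kidney. Members were the probe sets whose single platform gene symbol begins with Nduf, Uqcr, Atp5 or Cox followed by a digit of 4 to 8, together with Sdha, Sdhb, Sdhc, Sdhd, Cyc1 and Cycs. Cox8b was left out, being an isoform of brown fat and muscle. This gave 183 probe sets for 91 genes out of 45037 probe sets; the rule reads gene names only. The Nduf prefix also takes in 8 assembly factors of complex I, which are not subunits and are given as a group of their own. Of the 183 probe sets, 171, for 89 genes, passed a filter that kept the 60% of all probe sets with the highest mean level, and only these 171 are counted below; the testis isoform gene Cox7b2 and the complex I gene Ndufb4 were not. A further 10 probe sets that name a member together with another gene were left out. Ndufs6, Ndufa11 and Cox7b had no probe set of their own and are not analysed here.

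The samples were 2 kidneys of acetate-fed mice and 1 control kidney, all from C57BL/6 mice in conventional housing, 1 array per mouse. Acetate (C2), the most abundant short-chain fatty acid of the gut, was given at 200 mM in the drinking water for 6 weeks to mice that were 3 weeks old at the start. The agent label separates acetate from control, while the labels give neither sex nor the part of the kidney that was taken. Starting age and feeding time are recorded for the acetate-fed mice only, so the age of the control mouse is not known. Values are deposited log2 expression values, on which a difference of 1 is a doubling. With 1 control array, every difference includes whatever was particular to that kidney, and an exact permutation test of 2 arrays against 1 cannot give a one-sided p below 0.333.

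The respiratory chain passes electrons from NADH (complex I) and succinate (complex II) through ubiquinone, complex III and cytochrome c to oxygen at complex IV, and the proton gradient built on the way drives ATP synthase, complex V. Proximal tubule and thick ascending limb cells, which reabsorb most filtered salt and solutes, are rich in mitochondria and depend on this route for ATP. Many subunit genes are controlled together through the factors NRF-1 and GABP, the estrogen-related receptors and the PGC-1 coactivators.

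Promoter sequences show how far this shared control can be read from the genes themselves. RefSeq promoter windows, 250 bases before to 50 after the annotated start on build GRCm38.p6, were at hand for 74 of the 91 genes. The NRF-1 motif, the run of 10 capitals in the windows below, reads the same on both strands and was in 6 of the 74 (8.11%), against 1.07% of the windows' 27025 genes. On either strand, the ETS motif ACCGGAAG bound by GABP was in 10.8% of member genes against 2.60% of all genes, the YY1 motif AAGATGGCG in 9.46% against 1.64%, and the estrogen-related receptor motif TCAAGGTCA in 2.70% against 0.466%. The YY1 letters were shortened by 1 after first counts were seen, so that share was not set in advance. In all, 22 of the 74 genes held at least 1 of the 4 motifs, and motifs of different kinds overlapped in 0 promoters. Member promoters were also richer in G and C, with a median of 59.0% against 52.8%. They held a median of 20 CpG (C followed by G), against 7 in all genes. The part of base composition in these shares was not tested. The 6 NRF-1 matches are shown with 10 bases on each side, the motif in capitals, because they lie in genes of complexes III, IV and V and of assembly factors; 0 of 31 complex I promoters, 0 of 3 of complex II and 0 of 1 of cytochrome c hold the motif.
Uqcrc1: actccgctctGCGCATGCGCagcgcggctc
Cox6a1: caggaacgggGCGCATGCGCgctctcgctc
Atp5g2: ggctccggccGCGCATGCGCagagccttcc
Atp5k: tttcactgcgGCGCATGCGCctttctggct
Ndufaf4: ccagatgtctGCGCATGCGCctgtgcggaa
Ndufaf5: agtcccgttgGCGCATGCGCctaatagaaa
These windows lie at chr9:108936668-108936697 on the plus strand for Uqcrc1, chr5:115349101-115349130 on the minus strand for Cox6a1, chr15:102671070-102671099 on the minus strand for Atp5g2, chr5:108434430-108434459 on the minus strand for Atp5k, chr4:24897960-24897989 on the plus strand for Ndufaf4 and chr2:140170652-140170681 on the plus strand for Ndufaf5. The motif begins upstream of the annotated start in 4 of them, between positions -162 (Cox6a1) and -42 (Atp5g2), and downstream of it in Uqcrc1 and Ndufaf5. The median difference from control of the 6 genes was -0.11 in acetate-fed mouse 1 and 0.00 in acetate-fed mouse 2, and that of the 66 other tested genes with a window was -0.15 and 0.00. A match is a run of letters, and binding was not measured.

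Respiratory chain transcripts were mostly slightly lower in the kidney of acetate-fed mouse 1 than in the control kidney, and did not share a direction in acetate-fed mouse 2. In mouse 1, 147 of the 171 probe sets were below the control value (86.0%, against 37.6% of all 27022 probe sets tested) and 15 were above it (8.77%, against 34.4%), with a median difference of -0.13, or 8.88% lower. In mouse 2, 71 were below (41.5%, against 34.3% of all) and 85 above (49.7%, against 36.6%), with a median difference of 0.00. The median over all probe sets tested was 0.00 in both mice. Since both differences use the same control array, the 70 probe sets below control in both mice (40.9%, against 27.5% of all) and the 12 above in both (7.02%, against 26.9%) are descriptions.

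The distance between the acetate-fed kidneys, which does not involve the control, was as large as the distance of mouse 1 from control. Mouse 1 was below mouse 2 at 153 of the 171 probe sets (89.5%, against 35.7% of all), with a median of -0.14. Exact ties are frequent among low values in this table, and respiratory chain genes are among the highest on the array, so the shares were also taken over probe sets whose mean was 10 or more, a level chosen after seeing the data. Among the 127 members at that level, 120 were below control in mouse 1 (94.5%, against 51.6% of 2185 probe sets), 53 in mouse 2 (41.7%, against 40.8%), and 125 were lower in mouse 1 than in mouse 2 (98.4%, against 57.4%). The median of these 127 was -0.14 in mouse 1 and 0.01 in mouse 2, and the median of all 2185 was -0.01 and 0.01. Both acetate-fed kidneys were below the control by more than the gap between them at 8 of the 127 (6.30%, against 21.6% of the 2185), and above it by more than that gap at 2 (1.57%, against 24.5%). Each of these counts includes a Cox5a probe set tied between the acetate-fed kidneys, with differences of -0.02 and 0.02. For tied probe sets the gap is 0, so any difference from control is counted.

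**Figure D1:**
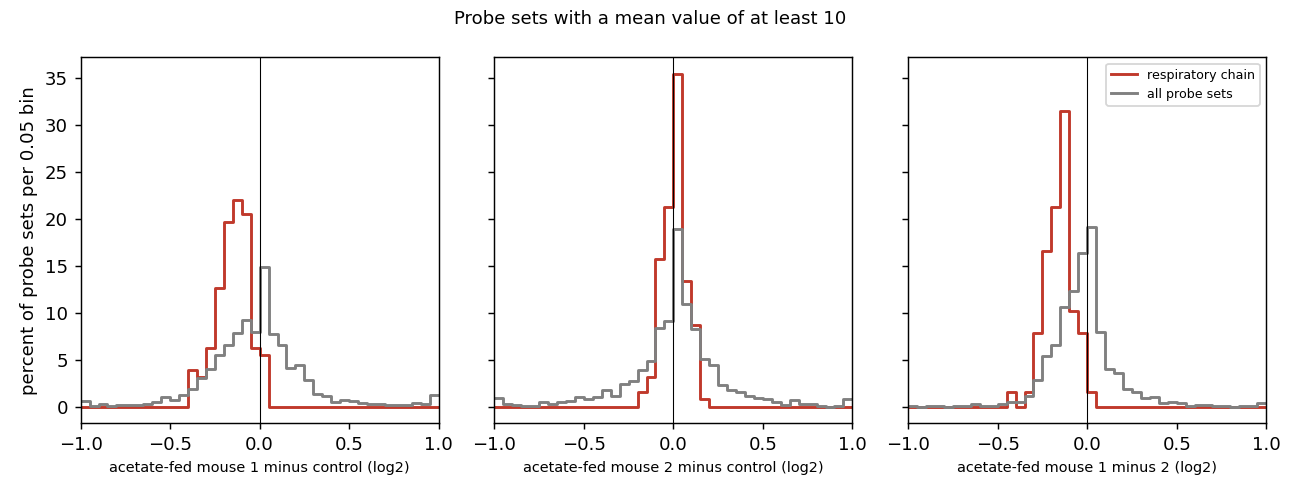
Share of probe sets (percent per bin of 0.05) by log2 difference for acetate-fed mouse 1 minus control (left), acetate-fed mouse 2 minus control (middle) and acetate-fed mouse 1 minus acetate-fed mouse 2 (right), for the 127 respiratory chain probe sets (red) and all 2185 probe sets (grey) at mean 10 or above; differences beyond 1 in size are drawn in the outermost bins. The respiratory chain lies left of 0 in the left and right panels and around 0 in the middle panel.

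The differences were small. A step of 0.32 on the log2 scale was used to count them. In mouse 1, 14 of the 171 probe sets were lower than the control by at least this step (8.19%, against 7.42% of all tested) and 1 was higher by as much (against 8.78%). In mouse 2 there was 1 lower (against 6.01%) and 1 higher (against 7.21%). In both mice together 1 was lower (against 4.35%) and 0 were higher (against 5.24%). At 1.1-fold, the count for mouse 1 was 80 lower (46.8%, against 19.9% of all tested) and 3 higher (1.75%, against 18.6%). For mouse 2 it was 9 lower (5.26%, against 16.2%) and 8 higher (4.68%, against 17.7%).

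The single probe set past this step in both mice belongs to Cycs, cytochrome c, and had 5.13 in both acetate-fed kidneys against 5.63 in the control, a low value. The main Cycs probe set, with the highest mean of 4, had 12.65 in mouse 1 and 12.78 in mouse 2, against 12.79 in the control. The other two had mean differences of -0.16 and 0.01. Cycs is therefore described by probe sets that do not share 1 value, and its 3 high ones lay below control in mouse 1 and on either side of it in mouse 2.

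**Figure D2:**
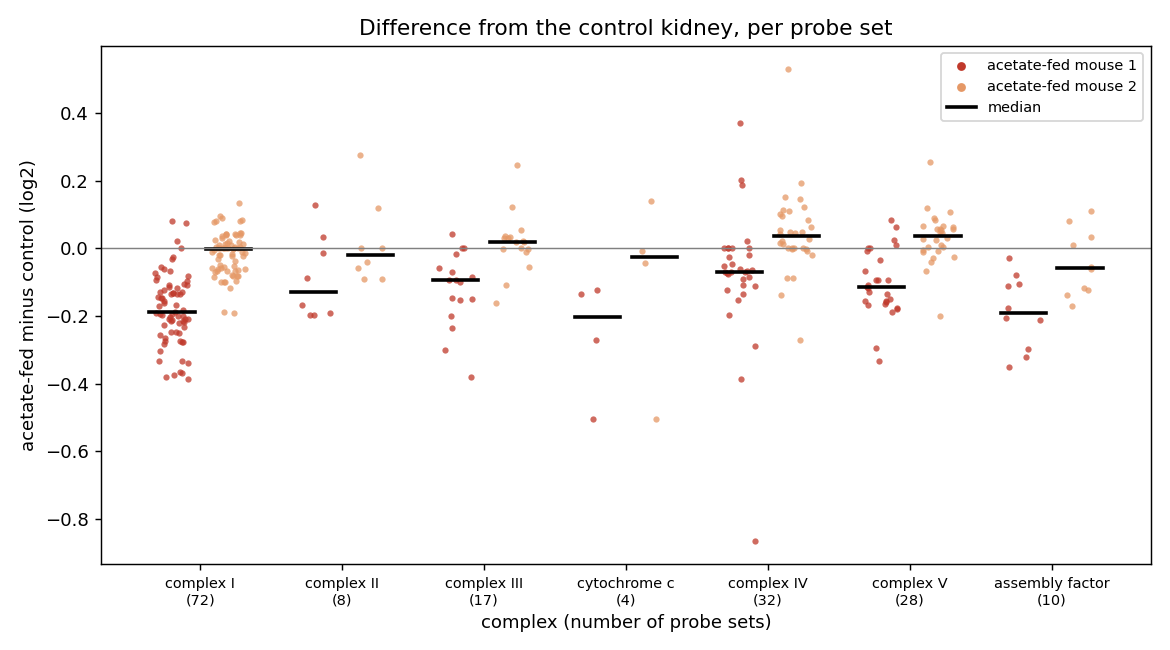
Log2 difference from the control array (vertical axis) for each tested probe set, by complex, with the number of probe sets under each name; red points are acetate-fed mouse 1, orange points acetate-fed mouse 2, black bars the medians. The medians of mouse 1 range from -0.20 for cytochrome c to -0.07 for complex IV, and those of mouse 2 from -0.06 for assembly factors to 0.04 for complex V.

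Complex I, the NADH dehydrogenase and largest complex of the chain, had the lowest median of complexes I to V in mouse 1. Its 72 probe sets, for 33 genes, had a median of -0.19 in mouse 1 (12.3% lower), with 68 below control and 3 above. In mouse 2 the median was 0.00, with 36 below and 28 above. Of the 14 probe sets lower by at least 0.32 in mouse 1, 8 were of complex I, which holds 72 of the 171 tested. Among all probe sets tested, 7.42% were lower by as much in mouse 1.

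The core subunits in the matrix arm carry the flavin and the iron-sulfur clusters that take electrons from NADH to ubiquinone. Their 16 probe sets were all below control in mouse 1, with a median of -0.21, and 10 of the 16 were below it in mouse 2, with a median of -0.02. Ndufv1, the flavin-binding subunit that oxidises NADH, had 11.85 in mouse 1 and 11.97 in mouse 2, against 11.97 in the control. Ndufs1, the largest iron-sulfur subunit, had 10.83 in mouse 1 and 10.97 in mouse 2, against 10.96 in the control. In both genes mouse 2 and the control lay within 0.02 of each other, and mouse 1 stood below them. Ndufs7 and Ndufs8, which carry clusters on the way to the ubiquinone site, were below control in both kidneys by their highest probe sets. Ndufs7 had 11.60 in mouse 1 and 11.71 in mouse 2, against 11.81 in the control, and another Ndufs7 probe set had 11.07 and 11.38, against 11.45. Ndufs8 had 12.23 in mouse 1 and 12.40 in mouse 2, against 12.48 in the control, and its 6 probe sets had mean differences of -0.17 to -0.08, although 1 of them was above control in mouse 2. Ndufs3, a core subunit without a cluster, had 11.58 in mouse 1 and 11.75 in mouse 2, against 11.81 in the control. Ndufv2, which carries a cluster beside the flavin, had 12.39 in mouse 1 and 12.52 in mouse 2, against 12.47 in the control, so the control lay between the acetate-fed kidneys.

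The accessory subunits surround this core and are needed for its assembly and stability. The 17 matrix arm probe sets had medians of -0.19 in mouse 1 and -0.01 in mouse 2, and the 35 membrane arm probe sets had medians of -0.17 and 0.00. The lowest mean differences in complex I were in the membrane arm. Ndufb3 had 10.84 in mouse 1 and 11.02 in mouse 2 (mean 10.93 ± 0.13, SD, n = 2), against 11.21 in the control. Ndufa10 had 11.98 in mouse 1 and 12.16 in mouse 2 (mean 12.07 ± 0.13, SD, n = 2), against 12.35 in the control. These are the genes of complex I with the widest shortfall in both kidneys, 1.30-fold and 1.14-fold below control for Ndufb3 and 1.29-fold and 1.14-fold for Ndufa10, and in both the nearer mouse was farther from control than the mice were from each other. Neither passed limma's test (adjusted p = 0.61 and 0.62; without tied probe sets 0.16 and 0.15).

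Ndufab1, the mitochondrial acyl carrier protein that also serves fatty acid and lipoic acid synthesis, had 11.92 in mouse 1 and 12.11 in mouse 2, against 12.21 in the control, and its 4 probe sets were all below control in both kidneys. Ndufa8 had 11.70 in mouse 1 and 11.87 in mouse 2, against 11.97 in the control. Ndufa5, a subunit of the matrix arm, showed the difference between the acetate-fed kidneys most plainly: it had 10.43 in mouse 1 and 10.86 in mouse 2, against 10.81 in the control, and its other probe set had 10.41 and 10.83, against 10.75. In both, mouse 1 was low while mouse 2 was at or above the control. At the other end, Ndufb5 had 12.19 in mouse 1 and 12.27 in mouse 2, against 12.25 in the control. Ndufb2 has 3 tested probe sets that differ in sign, 2 high ones with mean differences of -0.22 and -0.17 and a low one, at a mean of 5.10, with 0.04.

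**Figure D3:**
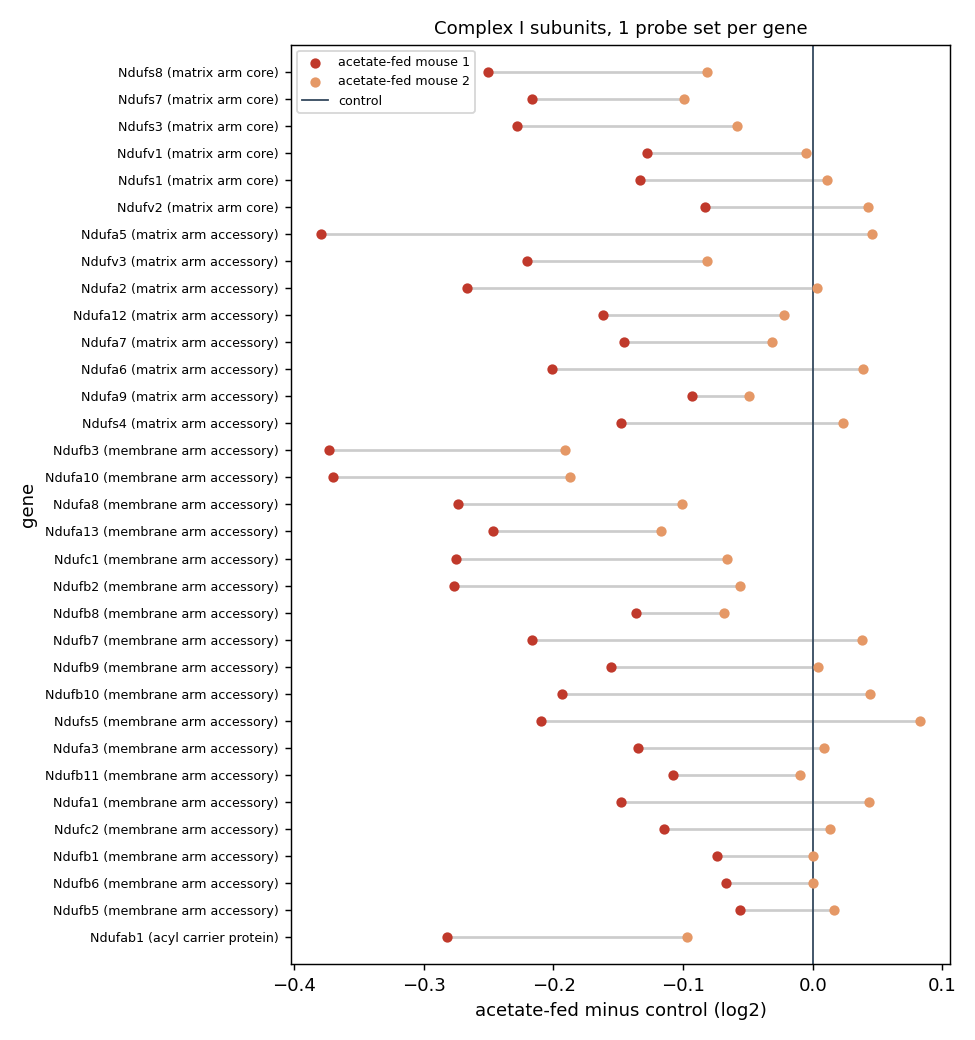
Log2 difference from control (horizontal axis) for the 33 tested complex I genes, each by its probe set with the highest mean, grouped by part of the complex; red points are acetate-fed mouse 1, orange points acetate-fed mouse 2, and the vertical line at 0 is the control. All 33 red points lie left of the line, between -0.38 and -0.06, and the orange points lie on both sides of it.

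The complex I assembly factors build the complex without staying in it. Their 10 probe sets, for 8 genes, were all below control in mouse 1, with a median of -0.19, and 6 of 10 in mouse 2, with a median of -0.06. Ndufaf8 had 10.14 in mouse 1 and 10.34 in mouse 2, against 10.46 in the control. Ndufaf5, which modifies Ndufs7 during assembly, had 7.84 in mouse 1 and 8.01 in mouse 2, against 8.13 in the control. Ndufaf1, which works on the membrane arm, had 8.34 in mouse 1 and 8.38 in mouse 2, against 8.55 in the control, and Ndufaf6 had 8.19 and 8.23, against 8.37. In these 2 genes the acetate-fed kidneys lay close together and below the control. Ndufaf4 and Ndufaf2 were below control in mouse 1 and above it in mouse 2: Ndufaf4 had 9.51 and 9.66, against 9.62, and Ndufaf2 had 8.08 and 8.24, against 8.16.

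Complex II, succinate dehydrogenase, is the only complex shared with the citric acid cycle and has no mitochondrially encoded subunit. Its 8 probe sets had a median of -0.13 in mouse 1, with 6 below control, and of -0.02 in mouse 2, with 4 below. Sdhb, the iron-sulfur subunit, had 12.72 in mouse 1 and 12.83 in mouse 2, against 12.92 in the control. Sdhc, a membrane anchor, had 11.18 in mouse 1 and 11.31 in mouse 2, against 11.35 in the control. Both anchors did not go the same way, since Sdhd had 12.17 in mouse 1 and 12.26 in mouse 2, against 12.14 in the control. Sdha, the flavoprotein that oxidises succinate, had 12.01 in mouse 1 and 12.02 in mouse 2, against 12.02 in the control. Its 3 tested probe sets differed in sign, with mean differences of -0.07 and -0.01 for the high ones and 0.20 for the low one.

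Complex III takes electrons from ubiquinol to cytochrome c. Its 17 probe sets, for 9 genes, had a median of -0.09 in mouse 1, with 14 below control and 1 above, and of 0.02 in mouse 2, with 6 below and 10 above. Uqcrfs1, the Rieske iron-sulfur protein, had 12.68 in mouse 1 and 12.85 in mouse 2, against 12.83 in the control. Cyc1, the cytochrome that hands electrons to cytochrome c, had 12.80 in mouse 1 and 12.88 in mouse 2, against 12.89 in the control. For both catalytic genes mouse 2 was within 0.02 of the control. Uqcrq, a small subunit beside cytochrome b, had 12.72 in mouse 1 and 12.95 in mouse 2, against 12.96 in the control, and its 3 low probe sets were at or above control. Uqcr11 had 12.20 in mouse 1 and 12.42 in mouse 2, against 12.40 in the control. The core proteins, which hold the complex together, differed from control by -0.09 (mouse 1) and 0.00 (mouse 2), as medians over 3 probe sets. Uqcrc1 had 12.21 in mouse 1 and 12.30 in mouse 2, against 12.30 in the control. Uqcrc2 had 12.34 and 12.39, against 12.35, and its other probe set had 12.16 and 12.25, against 12.31. Uqcrb, another small subunit, had 13.31 in mouse 1 and 13.42 in mouse 2, against 13.37 in the control.

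Complex IV, cytochrome c oxidase, has widespread subunits and isoforms restricted to some tissues. The 25 probe sets of widespread subunits had a median of -0.07 in mouse 1, with 21 below control, and of 0.05 in mouse 2, with 6 below and 17 above. Cox4i1, the largest nuclear-encoded subunit, had 13.51 in mouse 1 and 13.61 in mouse 2, against 13.58 in the control. Cox5a, which also sits close to the catalytic core, had 13.11 in mouse 1 and 13.15 in mouse 2, against 13.23 in the control. Cox5b, a zinc-binding subunit, had 13.67 in mouse 1 and 13.82 in mouse 2, against 13.83 in the control. Cox5a was thus below control in both kidneys by this probe set, while its other two differed from control by 0.02 in opposite directions. Ndufa4, named for complex I but since assigned to complex IV, had 13.02 in mouse 1 and 13.13 in mouse 2, against 13.11 in the control. Cox6b1 had 13.27 in mouse 1 and 13.38 in mouse 2, against 13.34 in the control. Cox7a2l had 10.62 in mouse 1 and 10.84 in mouse 2, against 10.65 in the control. Cox7c was represented by a low probe set, with 5.19 in mouse 1 and 5.34 in mouse 2, against 5.48 in the control.

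The tissue isoforms of complex IV held the widest differences of any member. Cox6a2, the heart and skeletal muscle form of subunit VIa, had 6.48 in mouse 1 and 7.08 in mouse 2, against 7.35 in the control, and so was 1.82-fold and 1.21-fold below it. Its widespread partner Cox6a1 had 13.75 in mouse 1 and 13.82 in mouse 2, against 13.82 in the control. Cox7a1, the form of subunit VIIa found in heart, muscle and brown fat, had 8.17 in mouse 1 and 9.08 in mouse 2, against 8.55 in the control, so the control lay between the acetate-fed kidneys. The widespread Cox7a2 had 13.43 in mouse 1 and 13.57 in mouse 2, against 13.47 in the control. Cox8a, the widespread form of subunit VIII, had 13.65 in mouse 1 and 13.75 in mouse 2, against 13.70 in the control, and a low Cox8a probe set (4.79 in mouse 1, against 4.42 in mouse 2 and in the control) was the 1 member higher by at least 0.32 in mouse 1. Cox4i2, the lung form, and Cox6b2, the testis form, had the same value on all 3 arrays, 4.75 and 7.68, an exact tie of the kind frequent in this table. Cox8c, another testis form, had 7.28 in mouse 1 and 7.14 in mouse 2, against 7.08 in the control. Ndufa4l2, a hypoxia-induced relative of Ndufa4, had 7.06 in mouse 1 and 6.89 in mouse 2, against 6.87 in the control.

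The control kidney also carried transcripts of brown and white fat. All 8 tested genes of a list of adipose markers (10 of the list are on the array) were lower in both acetate-fed kidneys, and their summed linear signal was 1122 in mouse 1 and 1222 in mouse 2, against 4893 in the control. Ucp1, the uncoupling protein of brown fat, had 4.50 in mouse 1 and 4.70 in mouse 2, against 8.53 in the control. Cidea, another brown fat gene, had 4.24 and 4.08, against 7.35, and the excluded Cox8b had 5.92 and 6.09, against 9.05. Brown fat is itself rich in respiratory chain transcripts. The median difference of the fat markers was -3.12 in mouse 1 and -3.30 in mouse 2, and that of the respiratory chain -0.13 and 0.00. Cox6a2 was below control in both kidneys, as the fat markers were, and Cox7a1 in mouse 1 but not in mouse 2; the part of fat in these values was not tested. Of the skeletal and heart muscle markers, 5 of the 11 on the array passed the filter, all with values under 5; 4 of these had the same value on all 3 arrays, and Myl7 was lower in both acetate-fed kidneys.

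**Figure D4:**
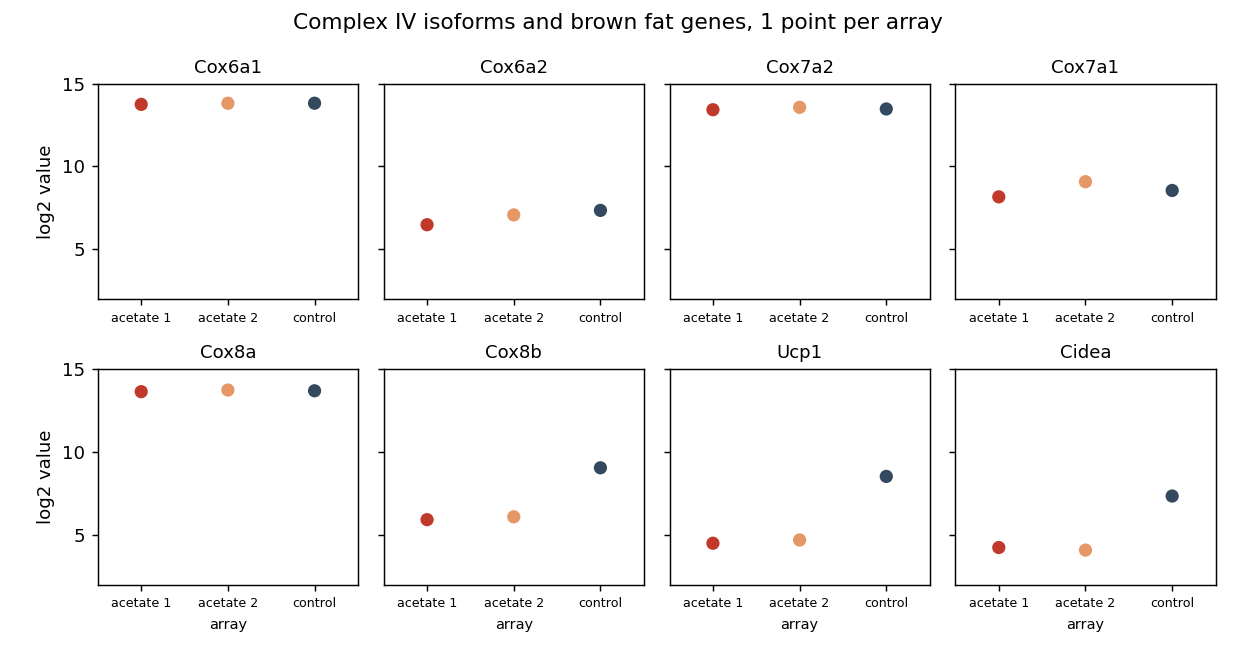
Log2 values (vertical axis) on each array for widespread and tissue-restricted complex IV genes and for the brown fat genes Ucp1 and Cidea; 1 point per array, acetate-fed mouse 1 in red, acetate-fed mouse 2 in orange, control in dark blue. Cox8b, Ucp1 and Cidea are high in the control alone, while Cox6a1, Cox7a2 and Cox8a differ between arrays by less than 0.15; heights are not to be set against each other between genes.

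Complex V makes ATP in its F1 head, driven by the ring of c subunits in the membrane. Its 28 probe sets, for 17 genes, had a median of -0.12 in mouse 1, with 22 below control and 5 above, and of 0.04 in mouse 2, with 8 below and 20 above. The catalytic beta subunit gene Atp5b had 13.87 in mouse 1 and 13.89 in mouse 2, against 13.84 in the control. The alpha subunit gene Atp5a1 had 13.60 in mouse 1 and 13.62 in mouse 2, against 13.59 in the control. These 2 genes were among the few whose main probe set lay at or above control in both kidneys, by 0.05 or less; a low Atp5a1 probe set, at a mean of 6.96, had a mean difference of -0.27. The smaller F1 subunits were lower in both kidneys by their main probe sets: Atp5e (epsilon) had 12.01 in mouse 1 and 12.26 in mouse 2, against 12.30 in the control. Atp5d (delta) had 12.98 and 13.10, against 13.16, and Atp5c1 (gamma) had 12.84 and 12.96, against 12.99. A low Atp5c1 probe set was above control in both, with 6.10 in each acetate-fed kidney, against 6.02.

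The genes Atp5g1, Atp5g2 and Atp5g3 encode precursors of the same c subunit. Atp5g1 had 12.45 in mouse 1 and 12.68 in mouse 2, against 12.63 in the control. Atp5g2 had 11.75 in mouse 1 and 11.93 in mouse 2, against 11.86 in the control. Atp5g3 had 13.73 in mouse 1 and 13.75 in mouse 2, against 13.74 in the control. All 3 were below control in mouse 1 and above it in mouse 2, by less than 0.01 in the case of Atp5g3. The 16 probe sets of the stalk and membrane subunits had medians of -0.12 in mouse 1 and 0.05 in mouse 2. Among them Atp5j2 had 12.65 in mouse 1 and 12.77 in mouse 2, against 12.78 in the control, and Atp5mpl had 11.94 and 12.08, against 11.98.

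**Figure D5:**
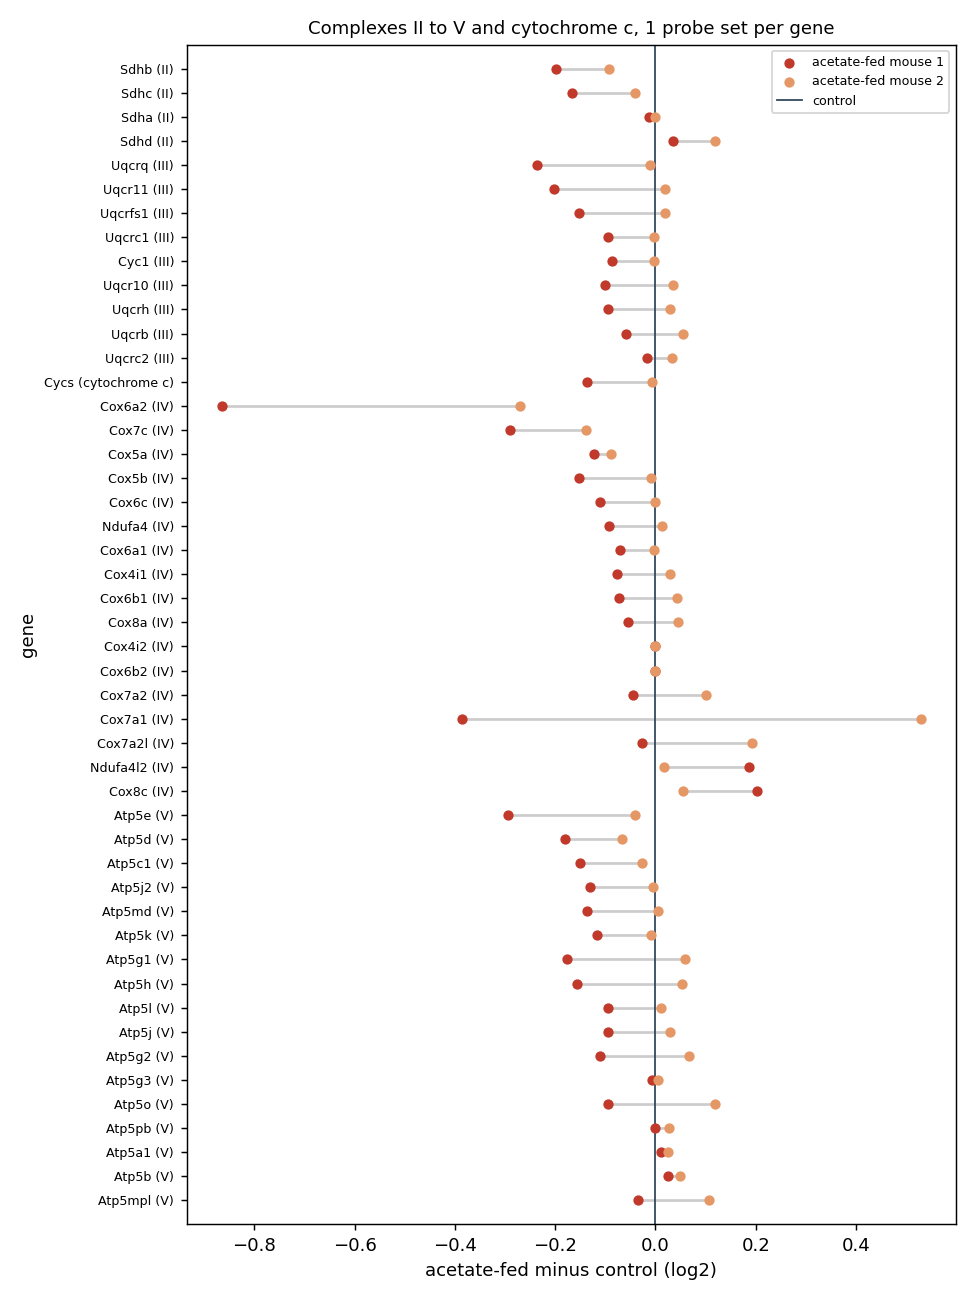
Log2 difference from control (horizontal axis) for the tested genes of complexes II to V and cytochrome c, each by its probe set with the highest mean, with the complex in parentheses; red points are acetate-fed mouse 1, orange points acetate-fed mouse 2, the vertical line at 0 the control. Cox6a2 and Cox7a1 stand apart, and most other red points lie between -0.30 and 0.

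The limma test, acetate against control over all 27022 probe sets with Benjamini-Hochberg adjustment at 0.05, called 3 member probe sets lower (1.75%, against 5.35% of all) and 3 higher (1.75%, against 5.18%). All 6 have exactly the same value in both acetate-fed kidneys, which leaves the fit no spread of its own, and all 6 have means under 10: Cycs at -0.50 (adjusted p = 0.0091), and probe sets of Ndufs8, Ndufab1, Atp5c1, Atp5j2 and Ndufb9 with differences of 0.08 or less in size. Of the tested members 7.02% were tied in this way, against 33.7% of all probe sets. With tied probe sets left out of the fit, 1 of 159 members was called lower (against 4.97% of all), Cox6a2 (log2 difference -0.57, adjusted p = 0.033), and 0 higher (against 6.55%). Members at an unadjusted p under 0.05 are not counted here, since the share of all probe sets at that level is not given for limma without tied probe sets. The fit without tied probe sets leaned on the spread of all probe sets together: its prior held 26.5 degrees of freedom and the acetate-fed pair gave 1. No member with a mean of at least 10 was called by either fit.

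Of 15 tested factors that govern respiratory chain genes, 7 were below control in both kidneys (46.7%, against 30.9% of all genes at 1 probe set per gene) and 0 above in both (against 26.0%). Ppargc1b, a PGC-1 coactivator of mitochondrial genes, had 7.92 in mouse 1 and 8.09 in mouse 2, against 8.87 in the control, 1.92-fold and 1.71-fold lower (limma adjusted p = 0.25; without tied probe sets 5.9e-05). Ppargc1a, its relative, had 9.68 in mouse 1 and 9.75 in mouse 2, against 9.73 in the control. Esrra, an estrogen-related receptor, had 8.85 and 8.97, against 8.998. Gabpb1, the partner of Gabpa in GABP, had 7.32 in mouse 1 and 6.97 in mouse 2, against 7.62 (limma adjusted p = 0.67; without tied probe sets 0.043). Nrf1 and Gabpa had the same value on all 3 arrays, 6.09 and 7.12. Exact ties are frequent in this table, so these values are not read as a lack of change. Tfam, the mitochondrial DNA packaging and transcription factor, had 8.22 in mouse 1 and 8.26 in mouse 2, against 8.26 in the control. Limma called 2 of the 15 lower (against 5.35% of all probe sets), the tied Polrmt and Twnk, enzymes that act in the transcription or replication of mitochondrial DNA. Ppargc1b is also abundant in brown fat, and the fat markers given above moved with it; their part was not tested.

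Of 35 tested assembly factors outside the Nduf family, 32 were below control in mouse 1 (91.4%, against 42.2% of all genes) and 23 in mouse 2 (65.7%, against 37.5%), with medians of -0.20 and -0.06. Limma called 4 lower (against 5.35% of all probe sets) and 0 higher: Tmem126b, Tmem186 and Timmdc1, which assemble complex I, and Bcs1l, which inserts the Rieske protein, all 4 tied between the mice. Uqcc3, an assembly factor of complex III, had 9.10 in mouse 1 and 9.30 in mouse 2, against 9.52 in the control. Ttc19, another complex III factor, went the other way, with 6.12 in mouse 1 and 6.36 in mouse 2, against 5.37 in the control (limma adjusted p = 0.34; without tied probe sets 0.00037). Among 17 citric acid cycle and pyruvate dehydrogenase genes, 15 were below control in mouse 1 (88.2%) and 7 in mouse 2 (41.2%), with medians of -0.12 and 0.00.

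The arrays were of whole tissue, so fewer cells of a type and less RNA per cell cannot be told apart. All 8 macrophage markers and all 6 fibroblast and matrix markers were higher in both acetate-fed kidneys, and higher in mouse 1 than in mouse 2 at every one. Their summed linear signals were 8746 and 9961 in mouse 1 and 4725 and 4236 in mouse 2, against 2311 and 3003 in the control. Mouse 1, the acetate-fed kidney with the lower respiratory chain values, had the higher values of these markers. Proximal tubule markers were below control at 10 of 12 genes in mouse 1 and 11 of 12 in mouse 2, with summed signals of 55497 and 47181, against 69733 in the control, lower in mouse 2 than in mouse 1. Markers of the thick ascending limb and distal tubule summed to 30608 and 36033, against 28391, and those of the collecting duct to 5831 and 8829, against 4618. The red blood cell gene Alas2 had 6.49 in mouse 1 and 8.37 in mouse 2, against 7.85. The part of these cell types in the respiratory chain values was not tested.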

How the data were processed

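Kidney RNA of 2 acetate-fed mice and 1 control mouse was measured on Affymetrix-type mouse arrays with biotin-labelled RNA, 1 array each, and 1 table of log2 values per probe set was deposited by the authors. The submitters' processing notes name MAS5, and no version, log step or filter is stated for it in the labels. Many probe sets hold exactly the same value on different arrays, and how the deposited values were summarised could not be settled. Array medians were 4.94 and 4.93 for the acetate-fed mice and 4.91 for the control, so the arrays were near a common scale as deposited. Scanner files were not used, so background and saturation are unknown, precision is limited by the 3 arrays, and differences among the highest values may be compressed.

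The 64 control probe sets were left out, and symbols came from the platform annotation; all 91 member genes matched RefSeq (GRCm38.p6) by Entrez identifier. The upper 60% of probe sets by mean (at least 4.21) were tested with limma 3.58.1 in R 4.3.3 (lmFit, eBayes with trend, 1 residual degree of freedom, the lone control assumed to vary like the acetate-fed pair). On simulated data with 27022 probe sets and 200 changed, in the acetate against control comparison, it called 0% of changes of 1 on the log2 scale and 95.5% to 99.5% of changes of 3. The simulated arrays held no tied values, while 33.7% of the tested probe sets were tied between the acetate-fed mice. These rates therefore do not carry over to the fit of the deposited values. Where 1 value per gene is given, it is that of the tested probe set highest in mean. Counts used a log2 step of 0.32 per mouse. Genes are named by role: the lowest 4 and highest 2 mean differences per complex, catalytic subunits, tissue isoforms with their partners, genes whose probe sets differ in sign by over 0.25, and 6 regulators; Ndufs3, Ndufs7, Ndufs8, Ndufa5, Gabpb1, Polrmt, Twnk and single genes of the other lists were added after their values were seen. The YY1 motif was shortened by 1 letter after its first counts were seen. Members and lists were chosen with earlier results of these data known. Alternatives changed the fold, filter, scaling, probe sets and arrays. Python 3.11.15 and pandas 2.3.3 were used.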

Additional observations from a re-analysis of the deposited data

How the results depend on the processing

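Counts of members past the fold rest on the fold chosen. For lower in mouse 1, higher in mouse 1, lower in mouse 2, higher in mouse 2, lower in both and higher in both, the counts of 14, 1, 1, 1, 1 and 0 at a log2 step of 0.32 became 80, 3, 9, 8, 9 and 0 at 1.1-fold and 1, 0, 0, 0, 0 and 0 at 1.5-fold, by construction. With 1 probe set per gene, 5 were lower in mouse 1, 0 were higher there, and 0 were lower in mouse 2 or in both. In the upper 40% of probe sets 0 were higher in mouse 1, lower in mouse 2 or lower in both. Among members with a mean of at least 10, added after seeing the data, 6 were lower in mouse 1 and 0 counted in the other 5. Without 1 mouse, the count of lower in both ranged from 1 to 14 and that of higher in both was 1 without either. Limma's 3 lower and 3 higher calls became 1 and 0 without tied pairs and 5 lower with no filter. They became 0 and 0 in the upper 40% or after quantile normalization or median centring. The median of complex II was -0.0132 in mouse 1 and -0.0066 as the mean of the mice without probe sets ending in _s_at or _x_at, and that of assembly factors was -0.32 in mouse 1 in the 1 probe set with a mean of at least 10. Leaving out either mouse moved the medians of the mean difference to between -0.19 and 0.00 for complex I, -0.13 and -0.02 for complex II, -0.09 and 0.02 for complex III, -0.20 and -0.03 for cytochrome c, -0.07 and 0.04 for complex IV, -0.12 and 0.04 for complex V and -0.19 and -0.06 for assembly factors. The other medians moved by less than the spread between the mice. No paired analysis was possible because the control has 1 array and shares fewer than 2 replicate numbers with the acetate-fed mice.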

Other observations

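Of all genes tested, at 1 probe set per gene, 42.2% were below control in mouse 1 and 37.5% in mouse 2. Mitochondrial ribosomal proteins, which translate the mitochondrially encoded subunits of the chain, were below control at 72 of 76 tested genes in mouse 1 and 55 in mouse 2, with medians of -0.24 and -0.09, and mouse 1 was below mouse 2 at 73. Limma called 0 of the 76 (against 5.35% of all probe sets lower and 5.18% higher), with 3 at an unadjusted p under 0.05 (against 20% of all). Without tied probe sets it called 2 of 74 lower (against 4.97% of all), Mrpl39 and Mrpl49 (adjusted p = 0.030 and 0.010). Of 12 tested genes of coenzyme Q synthesis and transport, which supply the carrier between complexes I, II and III, 9 were below control in both kidneys (against 30.9% of all genes), and the median was -0.25 in mouse 1, against -0.13 in mouse 2. Coq3, a methyltransferase of that route, had 7.82 in mouse 1 and 7.98 in mouse 2, against 8.33 in the control (limma adjusted p = 0.43; without tied probe sets 0.043). Coq10b, a coenzyme Q binding protein, had 8.62 in mouse 1 and 9.03 in mouse 2, against 8.67, and Coq7, a hydroxylase, had 9.68 and 10.10, against 9.91.

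Protein import genes of the TOM and TIM complexes were below control at 18 of 22 in mouse 1 and 15 in mouse 2, with medians of -0.19 and -0.10. Genes of cristae and of mitochondrial fusion were below control at 11 of 12 in mouse 1 and at 4 of 12 in mouse 2, with medians of -0.13 and 0.05, and mouse 1 was below mouse 2 at all 12. Immt, which shapes cristae junctions, had 10.63 in mouse 1 and 10.72 in mouse 2, against 10.61 in the control, above it in both kidneys.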
